A study of Mus musculus with 12 samples.

Results

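The change with time in Smad4 KO CD4+ T cells was described from 6 of the 12 libraries of the series, 3 collected 12 h after treatment and 3 collected 3 h after treatment. The members were the libraries labelled KO at these times, and the genes compared were the 12436 of 24538 rows whose mean over the 12 libraries reached 3. The KO mice had a floxed Smad4 allele and a Cre recombinase under the control of Cd4, which acts in T cells from the stage at which Cd4 is first made in the thymus. The 6 other libraries, 3 at 12 h and 3 at 3 h, came from wild type (WT) cells and were used for the spread and for 1 comparison of the changes. In all 4 groups, CD4+ T cells of C57BL/6 mice, from spleen and lymph nodes, had been activated and kept in interleukin 6 (IL-6) with an inhibitor of the TGF-β receptor. The labels give no age for the mice and do not say whether libraries came from separate mice, so the p-values measure the spread between libraries, which may be in part technical. Cells before treatment and cells in the Th0 condition, which the series also names, were not analysed here.

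A resting T cell that is triggered through its antigen receptor first switches on immediate early transcription factors and cytokine genes. It then makes more ribosomes, raises its metabolism, and enters the cell cycle some hours later. IL-6 acts through a receptor that uses gp130 and the transcription factor STAT3, and together with TGF-β it drives naive CD4+ T cells to become TH17 cells, the helper cells that make interleukin 17. SMAD4 is the shared partner of the SMAD proteins that carry TGF-β signals to the nucleus, and with the receptor inhibited that signal is held down in both genotypes.

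Values are the log2 normalised levels that the authors deposited. A difference of 1 is a 2-fold change, and each difference below is the mean at 12 h minus the mean at 3 h in KO-labelled libraries, with its standard error (SE, n = 3 libraries at each time) from limma, a linear model fitted over all genes. A gene was called where its limma adjusted p (Benjamini-Hochberg over the 12436 genes) was under 0.05. The read depth behind each value is unknown.

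The labels were checked first. In KO-labelled libraries Smad4 (GRCm38 chr18:73639009-73703780) had 11.50, 11.50 and 11.60 at 12 h, against 11.66, 11.62 and 11.66 at 3 h. It was not called (-0.11 ± 0.06; limma adjusted p = 0.1), though it was with median centring and without the filter on low values. In WT it had 11.53, 11.49 and 11.52 at 12 h, against 11.65, 11.58 and 11.71 at 3 h, so the genotypes overlap. Cre removes only part of a floxed gene, and a level summed over all its exons checks no genotype, so the libraries are called KO-labelled. The labels give female mice, yet the replicate 2 library of each of the 4 groups had Xist at 4.55 to 5.70 and the Y-linked gene Ddx3y at 12.34 to 12.69, against 15.08 to 16.27 and 2.39 to 2.77 in the 8 others. Without these 4 libraries, the medians of the 37 gene lists with at least 10 genes moved by -0.17 to 0.13, and 0 changed sign.

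CD4+ T cell markers were high at both times in KO-labelled libraries. Cd4 was at 14.34 to 14.40 at 12 h and 13.31 to 13.49 at 3 h, and Cd3e at 13.18 to 13.54 and 13.01 to 13.17, while the kinase gene Lck was lower at 12 h (14.51 to 14.69, against 15.05 to 15.23 at 3 h). The log2 of the summed levels of the 15 CD4 T cell identity genes was 17.90 to 18.04 at 12 h and 18.32 to 18.42 at 3 h, lower at 12 h without overlap. Markers of other cells stood lower. The log2 of the summed levels of 21 B cell markers was 11.46 to 11.59 at 12 h and 12.48 to 12.74 at 3 h, with 0 of them at 0. That of 19 myeloid and dendritic cell markers was 10.24 to 10.38 at 12 h and 11.96 to 12.20 at 3 h, also with 0 at 0. The sums for CD8 T and NK cells (10.14 to 10.35 at 12 h and 10.25 to 10.47 at 3 h, 2 of 15 markers at 0 in every library) overlapped between the times, and so did those for gamma-delta T and NKT cells (9.75 to 10.23 and 10.15 to 10.64). Erythroid and platelet markers summed to 6.53 to 6.80 at 12 h and 7.40 to 7.99 at 3 h, with 5 of 11, Hbb-bs among them, at 0 in every library. In bulk RNA, fewer cells of a type and less RNA per cell cannot be told apart, and the part of these other cells in the results below was not tested.

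The change with time was broad. Among the 6 KO-labelled libraries 12 h and 3 h separated on the first principal component, with 85.0% of the variance. Of the 12436 genes, limma called 8453 (68.0%), 4269 higher at 12 h (34.3%) and 4184 lower (33.6%). At least 2-fold, 1301 genes rose (10.5%) and 1247 fell (10%), and at least 4-fold 233 rose (1.87%) and 314 fell (2.52%). All 3 values at 12 h lay outside the range of the 3 at 3 h in 8642 genes (69.5%), 8067 of them called. The median SE of a difference was 0.106. With each library centred on its own median, which moves the median of all genes by -0.13, 3459 genes were higher and 5108 lower, or 40.4% of calls higher in place of 50.5%, so counts of small changes depend on the scale. Without the 4 replicate 2 libraries 7309 genes were called, 3682 higher and 3627 lower.

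**Figure D1:**
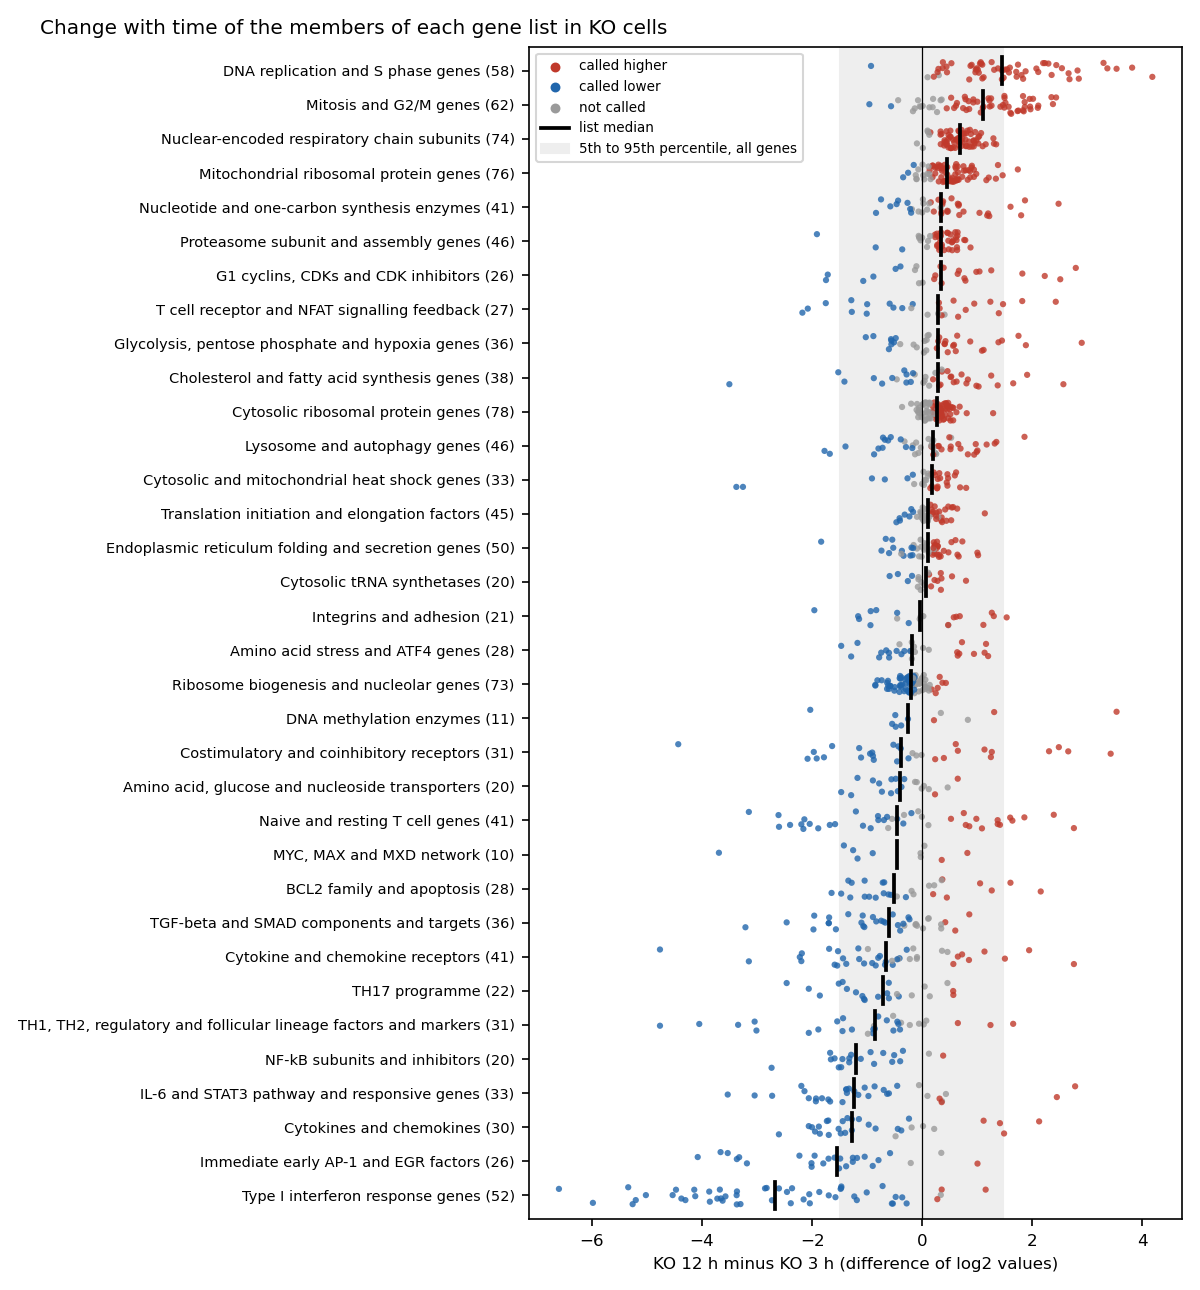
Difference between KO 12 h and KO 3 h, on the log2 scale, of each member of 34 gene lists, with lists in order of their median (black bar) and the number of genes tested in brackets; each point is a gene, and the grey band holds the central 90% of all genes. DNA replication genes sit farthest to the right, with a median of 1.45, and type I interferon response genes farthest to the left, with a median of -2.67.

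The gene lists below were made from textbook knowledge, with earlier results of these data known. Their counts can be read against the shares of all genes, 34.3% called higher and 33.6% called lower, and their medians against that of all genes, 0.00.

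Type I interferon response genes fell most. These genes are switched on by interferon, and many of their products block viral RNA or intracellular parasites. Of 52 genes tested 48 fell, 42 of them at least 2-fold and 33 at least 4-fold, 3 rose and 1 was not called, with a median of -2.67. Iigp1, an interferon-induced GTPase (chr18:60376027-60392634), had 3.42, 3.22 and 3.33 at 12 h, against 9.96, 9.53 and 10.27 at 3 h. The groups lay far apart, and the difference of -6.60 ± 0.33, or 97.0-fold lower, was the largest fall of any named gene (limma adjusted p = 1.08e-10). Irf7, the transcription factor that amplifies interferon production, had 4.61, 4.51 and 4.94 at 12 h, against 9.72, 9.93 and 10.42 at 3 h, a fall to 40.5-fold lower (-5.34 ± 0.26; limma adjusted p = 9.40e-11). Every library at 12 h was at least 4 units below every library at 3 h for both genes.

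Other members of the interferon list fell by similar amounts. Rtp4, a chaperone for receptor transport that interferon also induces, had 2.61, 2.54 and 3.72 at 12 h, against 8.603, 8.74 and 9.48 at 3 h (-5.98 ± 0.30, 63.3-fold lower). Its 12 h values are near the low end of the scale. The 2′-5′ oligoadenylate synthetases, which make the messenger that activates RNase L, fell together, with Oas2 at -5.26 ± 0.30 and Oas1a at -5.02 ± 0.35, and Oasl2 of the same family at -4.38 ± 0.34. Ddx58, which encodes the RNA sensor RIG-I, had 6.35, 5.98 and 5.63 at 12 h, against 10.96, 11.14 and 11.46 at 3 h (-5.20 ± 0.21, 36.9-fold lower). Xaf1, a pro-apoptotic interferon target, fell by 4.30 ± 0.39 on the log2 scale. The GTPase genes Tgtp1 and Tgtp2 are near-identical copies whose reads the counting could split, and their differences of -4.53 ± 0.22 and -4.47 ± 0.24 are uncertain as separate values. The adjusted p of these 8 genes was at most 9.79e-08 (limma).

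Of the 3 interferon list members that rose, Ifit2 rose most. Ifit2, an RNA-binding inhibitor of translation, had 9.0, 9.37 and 9.42 at 12 h, against 7.92, 7.94 and 8.47 at 3 h, without overlap (1.15 ± 0.18; limma adjusted p = 3.26e-05). Its difference stood against those of its neighbours in the family, Ifit1 (-3.63 ± 0.45) and Ifit3 (-2.85 ± 0.36), which were named after their values were seen. Psmb8, an immunoproteasome subunit, rose by 0.28 ± 0.10 (limma adjusted p = 0.0186). The call of Psmb8 ended under 5 of 24 alternatives, among them leaving out KO-labelled replicate 1 at 3 h (adjusted p = 0.107) or at 12 h (0.0532).

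Promoters of this list were searched for the core of the interferon-stimulated response element (ISRE), the site through which interferon signals act on these genes, spelled as GAAA, any 2 bases and GAAA again, on either strand (TTTC in place of GAAA on the other). Promoter sequences from RefSeq (GRCm38.p6) were matched for 37 of the 52 genes and 9561 of all genes tested. In the 250 bases before the start, 19 of the 37 interferon genes (51.4%) held the core, against 309 of the 9561 (3.23%). With the 50 bases after the start as well, the shares were 56.8% and 3.73%. The core was found in 0 of the windows of Ifit2, which rose, and likewise in 0 of those of Irf7, Ddx58, Oasl2 and Xaf1, which were among the largest falls. A match is a run of letters, and binding was not measured here. The windows of the 3 members with 1 window, a match and the largest falls follow, leaving out the near-identical Tgtp1 and Tgtp2, with the core in capitals: Oas1a (chr5:120907526-120907775, minus strand), Oas3, another oligoadenylate synthetase (chr5:120777660-120777909, minus strand), and Rsad2, which encodes the antiviral enzyme viperin (chr12:26456453-26456702, minus strand). In Oas1a 2 cores overlap.
Oas1a: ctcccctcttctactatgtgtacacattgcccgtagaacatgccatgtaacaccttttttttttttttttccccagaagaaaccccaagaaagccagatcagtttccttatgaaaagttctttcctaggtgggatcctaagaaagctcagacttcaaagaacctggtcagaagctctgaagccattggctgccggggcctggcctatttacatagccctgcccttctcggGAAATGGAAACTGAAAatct
Oas3: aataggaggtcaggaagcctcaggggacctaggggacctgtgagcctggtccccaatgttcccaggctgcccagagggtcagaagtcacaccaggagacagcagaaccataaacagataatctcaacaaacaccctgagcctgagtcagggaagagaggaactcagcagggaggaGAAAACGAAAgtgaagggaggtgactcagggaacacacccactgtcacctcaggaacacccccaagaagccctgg
Rsad2: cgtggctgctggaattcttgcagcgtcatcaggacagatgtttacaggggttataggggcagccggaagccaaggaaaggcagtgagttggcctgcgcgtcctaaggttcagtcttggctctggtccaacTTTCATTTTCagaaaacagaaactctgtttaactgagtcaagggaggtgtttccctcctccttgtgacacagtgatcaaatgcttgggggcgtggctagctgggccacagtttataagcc
The core lies 4 bases before the start in Oas1a at its nearest, 65 in Oas3 and 110 in Rsad2. Oas3 had 5.11, 5.22 and 6.41 at 12 h, against 9.60, 9.50 and 10.02 at 3 h (-4.12 ± 0.28; limma adjusted p = 3.16e-09). Rsad2 had 2.45, 2.39 and 4.15 at 12 h, against 6.501, 6.51 and 6.96 at 3 h (-3.66 ± 0.44; limma adjusted p = 1.93e-06).

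**Figure D2:**
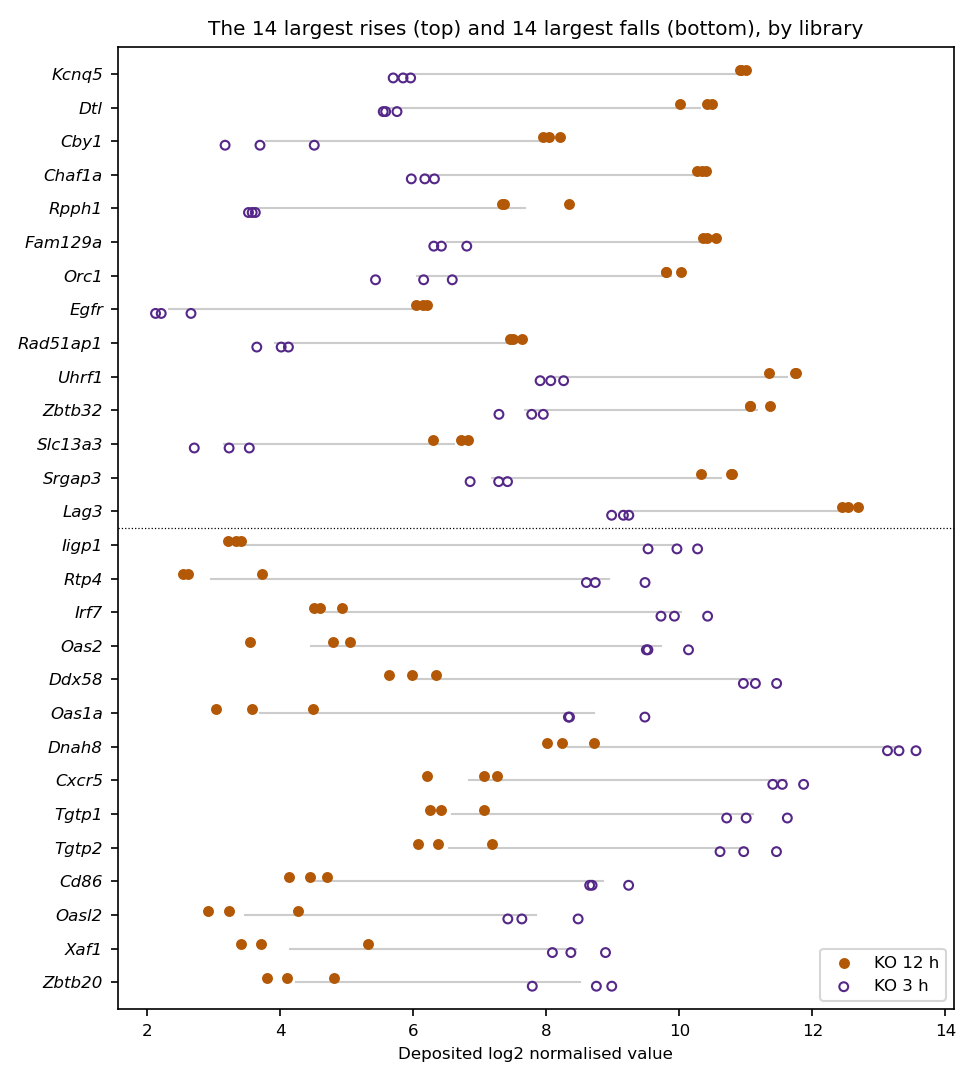
Deposited log2 value in each KO-labelled library (filled orange, 12 h; open purple, 3 h) of the 14 genes with the largest rise and the 14 with the largest fall; the grey line joins the group means. In each of the 28 genes the 12 h and 3 h values do not overlap, which the choice of these genes required, and 10 of the 14 falls are interferon response genes.

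Immediate early genes were also far lower at 12 h. These are the transcription factors of the AP-1, EGR and NR4A families that T cell receptor signals induce first. Of 26 tested 23 fell, 20 of them at least 2-fold, 1 rose and 2 were not called, with a median of -1.55. Nr4a1, the nuclear receptor Nur77 and a reporter of receptor signal strength (chr15:101254269-101274795), had 14.46, 13.99 and 14.31 at 12 h, against 17.80, 17.93 and 18.01 at 3 h. It fell 12.7-fold (-3.66 ± 0.12; limma adjusted p = 1.43e-12) and was still well above the middle of the scale at 12 h. Ier3, a stress-induced survival gene, had 6.37, 6.60 and 6.40 at 12 h, against 10.23, 10.81 and 10.57 at 3 h (-4.08 ± 0.19, 16.9-fold lower). Fosl2, an AP-1 subunit, fell by 3.53 ± 0.08 on the log2 scale, and Nr4a2, a relative of Nr4a1, by 3.37 ± 0.15. Klf6, a zinc finger factor, was the 1 member that rose, with 12.32, 12.74 and 12.83 at 12 h, against 11.78, 11.42 and 11.66 at 3 h (1.01 ± 0.12; limma adjusted p = 2.24e-06).

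NF-κB genes fell with them. Of 20 subunits, inhibitors and adaptors tested 18 fell, 11 at least 2-fold, 1 rose and 1 was not called, with a median of -1.20. Nfkbid, an inhibitor-like cofactor of NF-κB in the nucleus, had 13.97, 13.86 and 13.83 at 12 h, against 16.43, 16.75 and 16.70 at 3 h, 6.66-fold lower (-2.74 ± 0.08; limma adjusted p = 1.01e-12). Falls were smaller in Bcl3, a related cofactor (-1.67 ± 0.13), in Rel, the subunit c-Rel (-1.66 ± 0.09), and in Tnfaip3, the feedback inhibitor A20 (-1.59 ± 0.08). Tnip1, which works with A20, rose by 0.38 ± 0.09 (limma adjusted p = 0.00124).

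The list of T cell receptor signalling and feedback genes moved both ways, with 12 of 27 higher (44.4%), 11 lower (40.7%) and 4 not called (median 0.29). Of all genes 34.3% were called higher and 33.6% lower. Rgs1, a brake on chemokine receptor signalling, had 13.504, 13.42 and 13.44 at 12 h, against 11.08, 10.78 and 11.22 at 3 h (2.43 ± 0.13, 5.38-fold higher; limma adjusted p = 1.79e-10). Ubash3a, which dampens receptor signalling, rose by 1.82 ± 0.11, while its relative Ubash3b fell by 1.29 ± 0.17. Dusp1, a phosphatase that turns off MAP kinases, fell by 2.18 ± 0.13, and Dusp10 of the same family rose by 1.47 ± 0.18. Nfatc2, an NFAT transcription factor, rose by 1.39 ± 0.08. Ptpn22, a phosphatase that acts on the receptor's kinases, had 14.06, 13.75 and 14.003 at 12 h, against 15.99, 15.99 and 16.07 at 3 h (-2.08 ± 0.09). The adjusted p of these genes was at most 5.03e-06 (limma).

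Cytokine and chemokine genes were mostly lower at 12 h. Of 30 tested 22 fell, 17 at least 2-fold, 4 rose and 4 were not called (median -1.28); 12 others of the list, Il4, Il17a and Il22 among them, were under the minimum level. Il21, a cytokine of TH17 and follicular helper cells (chr3:37222759-37232636), had 9.66, 10.70 and 11.20 at 12 h, against 12.42, 12.56 and 12.75 at 3 h (-2.06 ± 0.28, 4.17-fold lower; limma adjusted p = 6.75e-06). Its 12 h values were spread more widely than its 3 h values. Cd40lg, the ligand with which helper T cells stimulate B cells, had 13.74, 13.73 and 13.66 at 12 h, against 15.53, 15.67 and 15.93 at 3 h (-2.002 ± 0.13, 4.01-fold lower; limma adjusted p = 1.93e-09). Tnfsf11, the cytokine RANKL, fell by 1.95 ± 0.13, and Cxcl10, a chemokine that interferons induce, by 2.60 ± 0.39 from a low level. The 4 that rose were Tnfsf4, the OX40 ligand (2.13 ± 0.22), and the chemokines Ccl3 (1.49 ± 0.23), Ccl22 (1.41 ± 0.33) and Xcl1 (1.12 ± 0.29; limma adjusted p = 0.00323). Ccl3 had 11.60, 10.79 and 11.36 at 12 h, against 9.72, 9.35 and 10.21 at 3 h. Ccl22 was at the low end, at 4.31 to 5.11 at 12 h and 2.43 to 3.71 at 3 h.

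Among cytokine and chemokine receptors 24 of 41 fell, 8 rose and 9 were not called (median -0.66). Chemokine receptors went both ways. Cxcr5, which leads follicular helper cells to B cell follicles (chr9:44511787-44561877), had 6.21, 7.06 and 7.25 at 12 h, against 11.40, 11.87 and 11.55 at 3 h (-4.76 ± 0.25, 27.2-fold lower; limma adjusted p = 1.63e-10). Cxcr5 is also made by B cells, whose summed markers were lower at 12 h, as given above. Ccr7, the receptor that holds naive T cells in lymph nodes (chr11:99144196-99155077), had 14.05, 13.86 and 14.03 at 12 h, against 10.89, 11.36 and 11.41 at 3 h (2.76 ± 0.20, 6.76-fold higher; limma adjusted p = 7.38e-09). Ccr4 rose by 1.94 ± 0.18 and Cxcr4 fell by 2.22 ± 0.21. Il12rb1, a receptor chain for IL-12 and IL-23, rose by 1.504 ± 0.08, and Tnfrsf4, the receptor OX40, by 1.13 ± 0.09. Il7r, the receptor chain for the survival cytokine IL-7, fell by 3.15 ± 0.35 (8.87-fold lower; limma adjusted p = 7.94e-07).

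Genes of the IL-6 and STAT3 pathway, the stimulus in the culture, fell in 25 of 33 cases, 19 at least 2-fold, while 4 rose and 4 were not called (median -1.23). Il6st, the signalling chain gp130 (chr13:112464070-112510086), had 13.03, 13.42 and 13.39 at 12 h, against 15.46, 15.49 and 15.47 at 3 h (-2.19 ± 0.09, 4.58-fold lower; limma adjusted p = 1.68e-11). The ligand-binding chain Il6ra, named here after its values were seen, had 10.70, 10.97 and 10.92 at 12 h, against 11.11, 11.48 and 11.35 at 3 h (-0.45 ± 0.10; limma adjusted p = 0.00119). Stat3 and Socs3, its target and feedback inhibitor, also named after their values were seen, differed by -1.37 ± 0.08 and -2.14 ± 0.17. Socs1, an inhibitor of the JAK kinases, fell by 2.73 ± 0.19 (6.62-fold lower; limma adjusted p = 3.41e-09). Lrrc32, which anchors latent TGF-β on the cell surface, fell by 3.04 ± 0.50, with a wide spread at 12 h (5.95, 5.12 and 7.21, against 8.80, 8.91 and 9.70 at 3 h). Against them rose Pim2, a survival kinase, with 13.499, 13.72 and 13.56 at 12 h, against 10.69, 10.82 and 10.93 at 3 h (2.78 ± 0.13, 6.87-fold higher; limma adjusted p = 5.90e-11), and Pias3, an inhibitor of STAT3 (2.45 ± 0.21, 5.46-fold higher). Tyk2, a JAK kinase, rose by 0.32 ± 0.09, a call that ended with median centring (limma adjusted p = 0.0558).

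The TH17 programme was lower at 12 h. All cultures held the inhibitor of the TGF-β receptor, whose part in these values was not tested. Of 22 genes tested 15 fell, 10 at least 2-fold, 2 rose and 5 were not called, with a median of -0.72 (-0.88 without the replicate 2 libraries); Il17a, Il22 and Il23r were among 8 under the minimum level. Sgk1, a salt-sensing kinase that supports TH17 cells (chr10:21882184-21999903), had 8.98, 8.72 and 9.02 at 12 h, against 11.48, 11.39 and 11.23 at 3 h (-2.46 ± 0.11, 5.51-fold lower; limma adjusted p = 4.21e-11). Il17f had 3.39, 2.91 and 2.90 at 12 h, against 4.84, 4.91 and 5.04 at 3 h (-1.86 ± 0.23; limma adjusted p = 2.26e-06), low at both times. Nfkbiz, a cofactor needed for TH17 cells, fell by 1.51 ± 0.07. Rbpj, the DNA-binding partner of Notch, rose by 0.56 ± 0.07 (limma adjusted p = 1.95e-06) and Il1r1, the IL-1 receptor, by 0.57 ± 0.24 (limma adjusted p = 0.0442). The call of Il1r1 ended under 13 of 23 alternatives, among them leaving out KO-labelled replicate 1 or 3 at 3 h (adjusted p = 0.118 and 0.15) or replicate 2 or 3 at 12 h (0.0955 and 0.147), and also 4 of the WT libraries in turn (0.0505 to 0.0539).

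TGF-β and SMAD genes were lower as well, with 24 of 36 called lower, 13 at least 2-fold, 3 higher and 9 not called (median -0.60). Smad3, a receptor-activated SMAD (chr9:63646767-63757994), had 11.76, 11.74 and 11.95 at 12 h, against 14.32, 14.27 and 14.23 at 3 h, 5.51-fold lower (-2.46 ± 0.06; limma adjusted p = 6.94e-14). Smad7, the inhibitory SMAD that blocks the receptor, had 9.97, 9.76 and 9.85 at 12 h, against 11.59, 12.07 and 11.81 at 3 h (-1.96 ± 0.12; limma adjusted p = 6.47e-10). Id1, an inhibitor of helix-loop-helix factors and a BMP and TGF-β target, had 6.26, 6.45 and 6.26 at 12 h, against 9.58, 9.72 and 9.31 at 3 h (-3.21 ± 0.17, 9.26-fold lower; limma adjusted p = 2.55e-10). Its relative Id3 went the other way, at 12.09, 11.97 and 11.69 at 12 h, against 11.01, 11.35 and 10.81 at 3 h (0.86 ± 0.12; limma adjusted p = 9.10e-06). Ldlrad4, which restrains SMAD phosphorylation, fell by 1.98 ± 0.19. The co-receptor Tgfbr3 (0.60 ± 0.18, limma adjusted p = 0.00739, but 0.0717 with quantile normalization) and the ubiquitin ligase Nedd4l (0.42 ± 0.16, limma adjusted p = 0.0252) also rose. The call of Nedd4l ended without replicate 1 at 3 h, without replicate 2 at 12 h and with quantile normalization or median centring, with adjusted p = 0.107 to 0.254. Tgfb1, the ligand, and its receptor chain Tgfbr1, named after their values were seen, differed by -1.70 ± 0.10 and -1.05 ± 0.11 (limma adjusted p = 4.57e-10 and 2.82e-07).

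Markers and factors of other helper lineages (TH1, TH2, regulatory and follicular cells) were lower in 20 of 31 cases, 11 at least 2-fold, and higher in 3, with 8 not called (median -0.86). Tbx21, which encodes the TH1 factor T-bet (chr11:97098071-97115331), had 8.30, 8.32 and 9.15 at 12 h, against 12.57, 12.66 and 12.69 at 3 h, 16.6-fold lower (-4.05 ± 0.19; limma adjusted p = 6.75e-11). Prdm1, the repressor Blimp-1, fell by 3.34 ± 0.24 (10.2-fold lower). Stat4, the factor that carries IL-12 signals to TH1 genes, rose by 1.24 ± 0.12 and Tnfrsf18, the receptor GITR, by 0.65 ± 0.07. Capg, an actin-capping protein, rose by 1.65 ± 0.13. The adjusted p of these 4 genes was at most 4.54e-07 (limma).

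Naive and resting T cell genes went both ways, as did all genes tested. Of 41 tested 21 fell (51.2%), 13 at least 2-fold, 14 rose (34.1%), 9 at least 2-fold, and 6 were not called (median -0.45). The shares of all genes were 33.6% lower and 34.3% higher. At least 2-fold, the list had 31.7% lower and 22% higher, against 10% and 10.5% of all genes. Beside Il7r, larger falls were those of Arhgap15, a Rac regulator (-2.61 ± 0.14), Btg2, an antiproliferative factor (-2.60 ± 0.07), and Gimap4, a lymphocyte GTPase. Gimap4 had 12.42, 12.63 and 12.71 at 12 h, against 14.95, 14.96 and 15.04 at 3 h (-2.4 ± 0.08; limma adjusted p = 2.12e-12). Risers beside Ccr7 were Klf3, a zinc finger repressor, with 9.09, 9.54 and 9.33 at 12 h, against 7.18, 7.74 and 7.46 at 3 h (1.86 ± 0.21; limma adjusted p = 1.13e-06), and Txnip, an inhibitor of glucose uptake (1.64 ± 0.22). Rflnb, a filamin-binding protein, rose by 2.39 ± 0.40 (limma adjusted p = 6.21e-05). Tcf7, the naive T cell factor TCF-1, named after its values were seen, had 13.87, 13.86 and 13.82 at 12 h, against 12.24, 12.34 and 12.17 at 3 h (1.60 ± 0.20; limma adjusted p = 3.39e-06).

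Costimulatory and coinhibitory receptors also went both ways, with 17 of 31 lower (54.8%), 11 higher (35.5%) and 3 not called (median -0.39). Of all genes 33.6% were called lower and 34.3% higher. Lag3, a coinhibitory receptor that binds MHC class II (chr6:124904361-124911705), had 12.54, 12.68 and 12.44 at 12 h, against 9.16, 8.98 and 9.24 at 3 h, 10.7-fold higher (3.43 ± 0.15; limma adjusted p = 2.07e-11). Tigit, another coinhibitory receptor, rose by 2.66 ± 0.14, and Cd226, the activating receptor for the same ligands, by 2.48 ± 0.13. Cd200, the ligand of an inhibitory receptor, rose by 2.31 ± 0.08. Cd69, an early activation marker, had 14.68, 14.58 and 14.59 at 12 h, against 16.56, 16.54 and 16.66 at 3 h (-1.97 ± 0.06; limma adjusted p = 9.71e-13). Cd86 (4.45, 4.13 and 4.70 at 12 h, against 8.69, 8.65 and 9.24 at 3 h; -4.43 ± 0.22, 21.6-fold lower) and Icosl (-1.92 ± 0.24) are ligands chiefly of antigen-presenting cells, whose markers fell too. Of 20 B cell markers tested 12 fell, 0 rose and 8 were not called (median -0.72), with the MHC class II genes H2-Aa at -3.04 ± 0.24 and H2-Eb1 at -2.52 ± 0.14 and the invariant chain Cd74 at -2.50 ± 0.15. Of 10 myeloid and dendritic markers 9 fell, 0 rose and 1 was not called (median -1.38), with Cd68 at -1.73 ± 0.16. The part of those cells in the values of Cd86 and Icosl was not tested.

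T cell identity genes and adhesion genes went both ways, as did all genes tested, with 34.3% called higher and 33.6% lower. Of 15 CD4 T cell identity genes 5 rose (33.3%), 7 fell (46.7%) and 3 were not called (median -0.17). Cd28, the main costimulatory receptor, had 14.07, 14.26 and 14.24 at 12 h, against 13.11, 12.73 and 12.98 at 3 h (1.25 ± 0.09; limma adjusted p = 4.17e-09). Cd2, an adhesion receptor, fell by 1.72 ± 0.08. CD8 T and NK cell markers had 1 of 7 higher and 2 lower, with Gzma at -2.24 ± 0.22 and Nkg7 at 0.69 ± 0.24, whose call ended without replicate 2 at 3 h or replicate 1 at 12 h (adjusted p = 0.0899 and 0.0952). The 4 gamma-delta T and NKT cell markers tested had 2 lower, and of 2 erythroid and platelet markers tested 1, Itga2b, was lower (-1.18 ± 0.20). Integrins and adhesion molecules had 8 of 21 higher (38.1%), 8 lower (38.1%) and 5 not called, near the shares of all genes. Their median of -0.03 changed sign with quantile normalization (0.04). Itga6 rose by 1.54 ± 0.15, Itgb7, of the gut-homing integrin, by 1.30 ± 0.13, and Cd44, the hyaluronan receptor of activated cells, by 1.27 ± 0.12. Icam1 fell by 1.96 ± 0.10 (limma adjusted p = 8.19e-11).

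DNA replication genes rose almost throughout. They encode the licensing factors, helicase, polymerases and chromatin assembly proteins that cells make as they enter S phase. Of 58 tested 55 rose, 41 at least 2-fold and 17 at least 4-fold, 1 fell and 2 were not called, with a median of 1.45. Chaf1a, the large subunit of chromatin assembly factor 1 (chr17:56040439-56072289), had 10.27, 10.35 and 10.40 at 12 h, against 5.97, 6.17 and 6.32 at 3 h (4.18 ± 0.15, 18.2-fold higher; limma adjusted p = 3.93e-12). Chaf1b, another subunit of the same complex, was the 1 member that fell, with 9.66, 9.74 and 9.80 at 12 h, against 10.75, 10.54 and 10.69 at 3 h (-0.93 ± 0.08; limma adjusted p = 6.36e-08). Values of the 2 times did not overlap in either gene, nor did they in 69.5% of all genes tested. Orc1, of the origin recognition complex, had 9.79, 10.03 and 9.80 at 12 h, against 6.59, 6.16 and 5.43 at 3 h (3.82 ± 0.22, 14.1-fold higher). Uhrf1, which guides maintenance DNA methylation, rose by 3.53 ± 0.13 and Mcm10, a replication initiation factor, by 3.37 ± 0.23. Dtl, which marks the licensing factor CDT1 for destruction (chr1:191537356-191575544), was not in the list and had 10.01, 10.49 and 10.41 at 12 h, against 5.59, 5.76 and 5.55 at 3 h (4.68 ± 0.16, 25.6-fold higher; limma adjusted p = 2.27e-12). Pcna, the sliding clamp of the polymerases, named after its values were seen, was not called at 0.10 ± 0.07 (14.63, 14.61 and 14.54 at 12 h, against 14.39, 14.46 and 14.63 at 3 h).

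Their promoters were searched for the 2 common forms of the E2F site, TTTCCCGC and TTTGGCGC (GCGGGAAA and GCGCCAAA on the other strand). E2F factors are the main switches of S phase genes. Promoters were matched for 46 of the 58 genes. In the 250 bases before the start 7 of the 46 (15.2%) held a site, against 283 of the 9561 tested genes (2.96%), and with the 50 bases after the start 16 (34.8%) did, against 3.52%. In the 250 bases, a site was found in 0 of the windows of Chaf1a, Orc1, Uhrf1 and Mcm10, the largest rises of the list. Chaf1b, which fell, also had 0. Binding was not measured here. The windows with a match and the largest rises belong to Hells, a chromatin remodeller (chr19:38930740-38930989, plus strand), Mcm5, of the replicative helicase (chr8:75109259-75109508, plus strand), and Cdc6, a licensing factor (chr11:98907901-98908150, plus strand). Capitals mark the site.
Hells: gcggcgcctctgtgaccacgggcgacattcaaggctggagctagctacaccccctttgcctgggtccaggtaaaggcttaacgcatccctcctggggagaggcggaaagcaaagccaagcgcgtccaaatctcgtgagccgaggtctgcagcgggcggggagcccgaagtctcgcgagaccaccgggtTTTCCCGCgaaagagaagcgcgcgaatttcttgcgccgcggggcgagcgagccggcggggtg
Mcm5: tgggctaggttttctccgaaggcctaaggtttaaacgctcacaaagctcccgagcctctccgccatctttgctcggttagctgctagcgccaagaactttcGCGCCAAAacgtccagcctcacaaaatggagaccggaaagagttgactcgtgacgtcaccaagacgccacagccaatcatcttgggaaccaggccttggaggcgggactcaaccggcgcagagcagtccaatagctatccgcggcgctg
Cdc6: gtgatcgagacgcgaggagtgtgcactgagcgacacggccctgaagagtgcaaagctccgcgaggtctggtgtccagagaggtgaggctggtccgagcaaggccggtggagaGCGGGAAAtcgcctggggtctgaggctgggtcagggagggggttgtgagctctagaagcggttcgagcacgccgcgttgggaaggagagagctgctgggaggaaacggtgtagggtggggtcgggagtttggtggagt
The site lies 54 bases before the start in Hells, 141 in Mcm5 and 130 in Cdc6. Hells had 11.46, 12.04 and 11.71 at 12 h, against 8.81, 8.82 and 9.03 at 3 h (2.85 ± 0.13), and Mcm5 had 14.13, 14.18 and 14.22 and 11.94, 12.11 and 11.89 (2.20 ± 0.07). Cdc6 had 7.60, 8.19 and 7.66 at 12 h, against 5.54, 6.39 and 5.87 at 3 h (1.88 ± 0.27; limma adjusted p = 1.54e-05). The groups do not overlap in any of the 3 genes, but neither do they in 69.5% of all genes tested. These 3 were also chosen among called genes.

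Mitosis and G2/M genes rose in 47 of 62 cases, 34 at least 2-fold, and fell in 2, with 13 not called (median 1.11). Top2a, the topoisomerase of dividing cells, had 9.58, 10.02 and 10.02 at 12 h, against 7.50, 7.28 and 7.53 at 3 h (2.43 ± 0.17, 5.41-fold higher; limma adjusted p = 5.21e-09). Racgap1, needed for cytokinesis, rose by 2.38 ± 0.14, and Aurkb, a mitotic kinase, by 2.35 ± 0.29 from a low level (3.13, 3.03 and 3.15 at 3 h). Ncaph, a condensin subunit, rose by 2.11 ± 0.17. The proliferation marker Mki67 went the other way, with 7.27, 7.70 and 7.64 at 12 h, against 8.77, 8.21 and 8.51 at 3 h (-0.96 ± 0.21, 1.94-fold lower; limma adjusted p = 0.000842), and the mitotic kinesin Kif15 fell by 0.56 ± 0.11 (limma adjusted p = 0.000265). These are the 2 members that fell.

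G1 regulators were higher in 16 of 26 cases, 6 at least 2-fold, and lower in 6, with 4 not called (median 0.34). Ccne1, cyclin E1, had 8.08, 8.56 and 8.49 at 12 h, against 5.73, 5.46 and 6.42 at 3 h (2.51 ± 0.23, 5.70-fold higher; limma adjusted p = 1.22e-07). Ccnd3, cyclin D3, had 11.66, 11.71 and 11.64 at 12 h, against 9.20, 9.51 and 9.63 at 3 h (2.23 ± 0.10, 4.68-fold higher; limma adjusted p = 3.15e-11). Of the pocket proteins, which bind E2F factors, Rbl1 rose by 2.79 ± 0.21 and Rbl2 by 1.82 ± 0.17, while Rb1 fell by 1.07 ± 0.08. The CDK inhibitors Cdkn1a and Cdkn1c fell by 0.89 ± 0.14 and 1.72 ± 0.28 (limma adjusted p = 4.47e-05 and 5.51e-05). Among DNA methylation enzymes, 3 of 11 rose and 6 fell, led by Uhrf1 and the maintenance methyltransferase Dnmt1 (1.31 ± 0.07) among the risers and by Tet2, which oxidises methylcytosine, among those that fell (-2.03 ± 0.10).

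**Figure D3:**
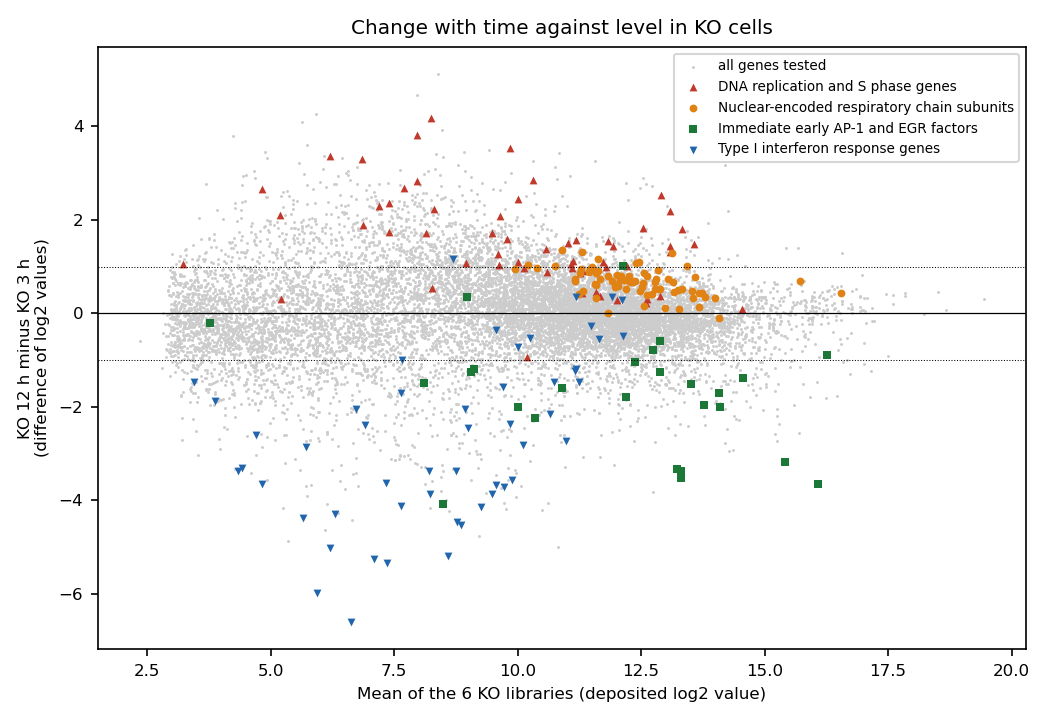
Difference between KO 12 h and KO 3 h against the mean level of the 6 KO-labelled libraries, both on the log2 scale, for all 12436 genes (grey) and 4 gene lists in colour; dotted lines mark 2-fold. Replication genes (red) lie above 0 at most levels, respiratory chain genes (orange) form a narrow band at a median of 0.68, and immediate early genes (green) and interferon genes (blue) lie below 0.

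Of 10 members of the MYC network, which sets the rate of cell growth, 5 fell, 4 at least 2-fold, 2 rose and 3 were not called (median -0.46). Mxd1, which competes with MYC for its partner MAX (chr6:86647042-86669161), had 8.22, 7.97 and 8.49 at 12 h, against 11.89, 11.75 and 12.12 at 3 h (-3.69 ± 0.16, 12.9-fold lower; limma adjusted p = 1.94e-11). Mnt, another such repressor, fell by 1.42 ± 0.07. Myc itself, named after its values were seen, had 15.88, 15.76 and 15.81 at 12 h, against 16.62, 16.86 and 16.66 at 3 h (-0.90 ± 0.07; limma adjusted p = 1.90e-08). Mlx, the partner of the glucose-sensing factors, rose by 0.36 ± 0.07. Mxd4 was also called higher (0.82 ± 0.30, limma adjusted p = 0.0245), but its call ended without replicate 1 or 2 at 3 h or replicate 3 at 12 h (adjusted p = 0.0545 to 0.156).

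Genes of ribosome production changed by small amounts that depend on the scale. Of 73 ribosome biogenesis and nucleolar genes 44 fell, 6 rose and 23 were not called, 0 of them by 2-fold (median -0.21), but with quantile normalization 22 fell and 19 rose (median -0.02). Rrp1b, Dhx33 and Ddx10, nucleolar proteins of ribosomal RNA processing, fell by 0.85 ± 0.06, 0.85 ± 0.05 and 0.81 ± 0.05. Npm1, the abundant nucleolar protein nucleophosmin, rose by 0.43 ± 0.09 (limma adjusted p = 0.000602). Of 78 cytosolic ribosomal protein genes 46 rose and 0 fell (median 0.27), and with median centring 28 rose and 3 fell (median 0.13). Rpl3 stood apart, with 17.31, 17.13 and 17.19 at 12 h, against 15.79, 15.96 and 16.02 at 3 h (1.29 ± 0.07, 2.45-fold higher; limma adjusted p = 5.09e-10). Ribosomal protein genes have many processed pseudogenes that can share their reads, so these values are uncertain. Translation factors were higher in 20 of 45 cases and lower in 7 (median 0.11), and tRNA synthetases higher in 9 of 20 and lower in 4 (median 0.07). Both medians turned negative with median centring, at -0.03 and -0.06. Eef2k, the kinase that slows elongation, rose by 1.14 ± 0.11, and Mars, the methionine tRNA synthetase, by 0.80 ± 0.06.

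Genes in the list of amino acid, glucose and nucleoside transporters were mostly lower. Of 20 transporter genes 12 fell, 3 at least 2-fold, 2 rose and 6 were not called (median -0.41). Of the 2 that rose, the call of Slc25a1 ended under 3 of 24 alternatives, among them median centring (limma adjusted p = 0.199). Slc1a5, which imports glutamine and similar amino acids, had 15.40, 15.20 and 15.37 at 12 h, against 16.78, 16.85 and 16.75 at 3 h (-1.47 ± 0.07, 2.77-fold lower; limma adjusted p = 3.11e-11). Slc7a1, for arginine and lysine, fell by 1.29 ± 0.06, Slc3a2, the shared heavy chain of amino acid exchangers, by 1.18 ± 0.06, and its light chain Slc7a5 by 0.78 ± 0.06. Among genes of the ATF4 amino acid response 8 of 28 rose and 12 fell (median -0.19). Those that rose were led by enzymes of serine and asparagine synthesis, Psph (1.20 ± 0.11) and Asns (1.13 ± 0.25), and by Sesn2, an amino acid sensor upstream of mTORC1 (1.16 ± 0.16; limma adjusted p = 7.43e-06).

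Enzymes of nucleotide and one-carbon synthesis rose in 24 of 41 cases, 8 at least 2-fold, and fell in 8 (median 0.35). Among the enzymes of deoxynucleotide supply, thymidylate synthase (Tyms, 1.87 ± 0.15), a ribonucleotide reductase subunit (Rrm2, 1.799 ± 0.16) and dUTPase (Dut, 1.61 ± 0.09) rose. Thymidine kinase (Tk1) went the other way and was called lower, at -1.07 to -0.48 over 24 alternatives. Its call ended without the 4 replicate 2 libraries (limma adjusted p = 0.0994). Shmt1, a serine hydroxymethyltransferase, fell by 0.84 ± 0.05, Ctps, CTP synthase, by 0.58 ± 0.05 and Mthfd2, the mitochondrial folate enzyme, by 0.46 ± 0.10 (limma adjusted p = 0.000723).

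Mitochondrial genes encoded in the nucleus mostly rose. Of 74 respiratory chain subunits 69 rose, 0 fell and 5 were not called, only 9 of them at least 2-fold, with a median of 0.68 that was 0.55 with median centring and 0.76 with quantile normalization. Ndufb10, of complex I, had 11.70, 11.57 and 11.42 at 12 h, against 10.07, 10.29 and 10.29 at 3 h (1.34 ± 0.10; limma adjusted p = 1.02e-08). Uqcr11, of complex III, rose by 1.31 ± 0.11 and Atp5g2, of the ATP synthase, by 1.30 ± 0.06. Mitochondrial ribosomal protein genes rose in 62 of 76 cases and fell in 3 (median 0.46), led by Mrpl34 (1.74 ± 0.15, 3.34-fold higher). Genes on the mitochondrial genome were not analysed here.

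Glycolysis, pentose phosphate and hypoxia genes were higher in 19 of 36 cases and lower in 8 (median 0.28). Tpi1, triosephosphate isomerase (chr6:124810586-124814296), had 13.93, 14.01 and 14.04 at 12 h, against 11.26, 11.11 and 10.90 at 3 h (2.90 ± 0.13, 7.46-fold higher; limma adjusted p = 2.25e-11). Eno1, enolase 1, rose by 1.89 ± 0.13, Ldhb, a lactate dehydrogenase chain, by 1.75 ± 0.10 and Pfkm, a phosphofructokinase, by 1.45 ± 0.14. Hif1a, the hypoxia factor, fell by 0.60 ± 0.07, and its target Egln3, an oxygen sensor, by 1.02 ± 0.16. The chief lactate dehydrogenase gene Ldha, named after its values were seen, was not called (0.08 ± 0.07; limma adjusted p = 0.323). Cholesterol and fatty acid genes had 19 of 38 higher and 11 lower (median 0.28). Mvk, mevalonate kinase (chr5:114444269-114460591), had 9.48, 9.36 and 9.43 at 12 h, against 7.06, 6.77 and 6.73 at 3 h (2.57 ± 0.15, 5.92-fold higher; limma adjusted p = 7.37e-10). The next enzymes of the mevalonate pathway rose too, Pmvk by 1.66 ± 0.14 and Mvd by 1.91 ± 0.17. Abcg1, which exports cholesterol (chr17:31057675-31117988), had 6.78, 6.71 and 6.61 at 12 h, against 10.21, 10.03 and 10.38 at 3 h (-3.50 ± 0.14, 11.3-fold lower; limma adjusted p = 1.34e-11), and the exporter Abca1 fell by 1.52 ± 0.24.

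Protein folding and turnover genes were more often called higher than lower. Endoplasmic reticulum genes were higher in 23 of 50 cases and lower in 12, with a median of 0.11 that turned to -0.02 with median centring. Pdia3 and Pdia4, disulfide isomerases, rose by 1.02 ± 0.06 and 1.00 ± 0.07. Dnajb9, a cochaperone of the unfolded protein response, had 9.73, 9.78 and 9.58 at 12 h, against 11.54, 11.33 and 11.73 at 3 h (-1.83 ± 0.12; limma adjusted p = 2.74e-09). Heat shock genes were higher in 19 of 33 cases and lower in 6 (median 0.18). The inducible Hsp70 genes Hspa1a and Hspa1b, near-identical copies whose separate values are uncertain, fell by 3.38 ± 0.24 and 3.26 ± 0.24, while the mitochondrial chaperonins Hspe1 and Hspd1 rose by 0.80 ± 0.07 and 0.59 ± 0.07. Proteasome genes rose in 35 of 46 cases and fell in 3 (median 0.34). The largest fall was that of Psme2, a subunit of the interferon-induced PA28 cap, with 13.16, 13.12 and 13.12 at 12 h, against 14.997, 15.07 and 15.07 at 3 h (-1.91 ± 0.06, 3.76-fold lower; limma adjusted p = 2.27e-12), and its partner Psme1 fell by 0.84 ± 0.07. Psmb9, an immunoproteasome subunit, was the third (-0.36 ± 0.13; limma adjusted p = 0.0193), and its call ended without replicate 3 at 3 h (0.0829), without replicate 2 at 12 h (0.089) and without the 4 replicate 2 libraries (0.061).

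Lysosome and autophagy genes were higher in 19 of 46 cases (41.3%) and lower in 13 (28.3%), against 34.3% and 33.6% of all genes (list median 0.19). Smpd1, acid sphingomyelinase, rose by 1.86 ± 0.16 and Ctsd, cathepsin D, by 1.35 ± 0.08. Ctss, a cathepsin of antigen-presenting cells, fell by 1.77 ± 0.09. It is itself among the myeloid markers summed above, so the lower sum is not separate from its fall. Genes of the BCL2 family and apoptosis had 15 of 28 lower, 7 higher and 6 not called (median -0.51). Bad, a pro-apoptotic member, had 7.74, 7.49 and 7.60 at 12 h, against 5.30, 5.31 and 5.75 at 3 h (2.15 ± 0.21, 4.45-fold higher; limma adjusted p = 1.89e-07). Casp9, the initiator caspase of the mitochondrial pathway, rose by 1.27 ± 0.14. Bcl2l11, which encodes the pro-apoptotic protein BIM, had 11.23, 10.86 and 11.02 at 12 h, against 12.75, 12.62 and 12.68 at 3 h (-1.65 ± 0.12; limma adjusted p = 9.55e-09). Birc3 and Cflar, which block death receptor signals, fell by 1.47 ± 0.05 and 1.31 ± 0.06.

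The largest changes outside the lists were in genes of varied function. Kcnq5, a potassium channel (chr1:21398403-21961942), rose most, with 10.93, 10.91 and 11.00 at 12 h, against 5.70, 5.85 and 5.96 at 3 h (5.11 ± 0.24, 34.6-fold higher; limma adjusted p = 4.27e-11). Cby1, an inhibitor of β-catenin (chr15:79659199-79667660), rose by 4.27 ± 0.33, with a wide spread at 3 h (4.51, 3.70 and 3.17). Rpph1, the RNA of RNase P, had 8.34, 7.36 and 7.34 at 12 h, against 3.63, 3.58 and 3.52 at 3 h (4.10 ± 0.39). Egfr, the receptor of epidermal growth factor (chr11:16752203-16918158), had 6.21, 6.05 and 6.14 at 12 h, against 2.21, 2.13 and 2.66 at 3 h (3.80 ± 0.27, 13.9-fold higher; limma adjusted p = 5.17e-09). Both genes were near the low end of the scale at 3 h. Zbtb32, a zinc finger repressor of activated lymphocytes, rose by 3.49 ± 0.26. Fam129a rose by 3.93 ± 0.18, Slc13a3, a dicarboxylate transporter, by 3.45 ± 0.29, and Srgap3, a Rac regulator, by 3.44 ± 0.19. Among the falls Dnah8, an axonemal dynein chain (chr17:30624354-30877365), had 8.01, 8.24 and 8.71 at 12 h, against 13.30, 13.56 and 13.13 at 3 h (-5.01 ± 0.18, 32.2-fold lower; limma adjusted p = 3.93e-12). Zbtb20, a zinc finger repressor, fell by 4.27 ± 0.33.

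The same contrast was made in WT cells to ask whether the change with time differed in KO-labelled cells. In WT 8449 genes were called (67.9%), 4271 higher (34.3%) and 4178 lower (33.6%), of which 1273 (10.2%) and 1307 (10.5%) by at least 2-fold and 213 (1.71%) and 322 (2.59%) by at least 4-fold. Of these, 7612 were called in both genotypes in the same direction, 90.1% of the KO calls and 90.1% of the WT calls, and 1 in opposite directions. At least 2-fold, 2204 genes were shared, 86.5% of 2548 in KO-labelled cells and 85.4% of 2580 in WT. Over the 12436 genes, which are measured in the same libraries and are not independent, the 2 changes had a Pearson r of 0.962. A call in 1 genotype and not in the other is no difference between them, so the difference of the changes was tested itself (KO change minus WT change). In limma 0 genes were called (0%), with 497 at an unadjusted p under 0.05, 310 of them higher (2.49%) and 187 lower (1.50%). The smallest adjusted p was 0.0552. The median 95% interval of a difference of changes was ± 0.32, so most genes could still differ by that much, and 84 genes had an estimated difference of at least 1 in size. Leaving out WT 3 h replicate 2, 1 of the 4 libraries that go against their label, gave 28 calls, all higher in KO. Leaving out all 4 of those libraries gave 0 calls.

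**Figure D4:**
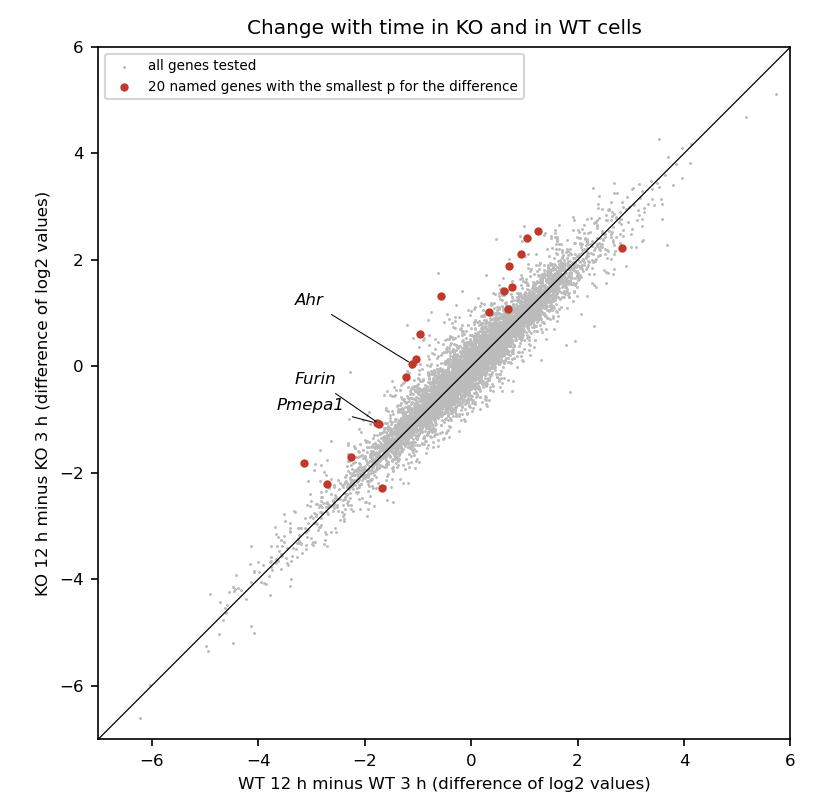
Difference between 12 h and 3 h in KO cells (vertical) against that in WT cells (horizontal), on the log2 scale, for all 12436 genes; the line marks equal changes, and red points are the 20 named genes with the smallest unadjusted p for the difference. Most genes lie along the line, and Ahr, Furin and Pmepa1 lie above it.

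Pmepa1, Furin and Ahr were singled out after their values were seen. Pmepa1, a TGF-β target that feeds back on SMAD signalling (chr2:173224458-173276533), had in KO-labelled libraries 11.28, 11.08 and 11.38 at 12 h, against 12.28, 12.33 and 12.33 at 3 h. In WT it had 9.94, 9.95 and 9.96 at 12 h, against 11.70, 11.75 and 11.68 at 3 h. It fell in both, by 1.07 ± 0.07 in KO-labelled cells and 1.76 ± 0.07 in WT, with a difference of changes of 0.69 ± 0.10 (95% interval 0.48 to 0.91; limma adjusted p = 0.0552, 0.00625 to 0.319 over 21 alternatives, of which 5 passed). Furin, the protease that matures TGF-β (chr7:80388585-80405436), fell by 1.08 ± 0.09 in KO-labelled cells and 1.72 ± 0.09 in WT (difference 0.64 ± 0.13; limma adjusted p = 0.303, and 2 of 21 alternatives passed). Ahr, the aryl hydrocarbon receptor that supports IL-22 production, differed by 0.05 ± 0.19 in KO-labelled cells and fell by 1.11 ± 0.19 in WT (difference 1.15 ± 0.26; limma adjusted p = 0.369, and 0 of 21 alternatives passed). Ccnd3 rose by 2.23 ± 0.10 in KO-labelled cells and 2.83 ± 0.10 in WT, but that difference of -0.60 ± 0.14 was not called (limma adjusted p = 0.369).

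**Figure D5:**
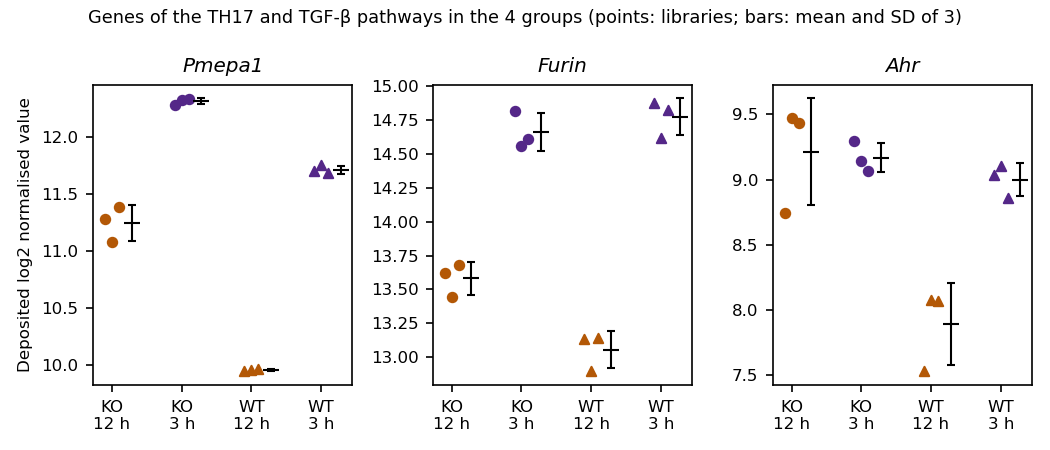
Deposited log2 values of Pmepa1, Furin and Ahr in the 12 libraries (points; orange for 12 h, purple for 3 h; circles for KO, triangles for WT), with the mean and SD of 3 libraries beside each group. Pmepa1 is lower at 12 h than at 3 h in both genotypes, at 11.08 to 11.38 in KO and 9.94 to 9.96 in WT at 12 h.

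Among TH17 genes the median was -0.72 in KO-labelled cells and -1.12 in WT, the median difference was 0.21, and 7 of 22 had an unadjusted p under 0.05, all higher, against 2.49% of all genes. In the IL-6 and STAT3 list 8 of 33 did, all higher, and in the naive and resting list 9 of 41, all higher. Among DNA replication genes the median was 1.45 in KO-labelled cells and 1.57 in WT, and 11 of 58 had an unadjusted p under 0.05, all lower, against 1.50% of all genes. Interferon genes had medians of -2.67 in KO-labelled cells and -2.76 in WT. Of these 52 genes 7 were higher and 1 lower at an unadjusted p under 0.05 (limma). At the same threshold 9 of 41 cytokine and chemokine receptors were higher and 2 lower. Of 31 genes of other helper lineages 6 were higher and 0 lower, and of 36 TGF-β and SMAD genes 5 were higher and 1 lower. The 4 gamma-delta T and NKT cell markers tested had medians of -0.57 in KO-labelled cells and -1.10 in WT, with a median difference of 0.61, and 1 of them had an unadjusted p under 0.05. In each of these lists 0 genes passed the adjusted threshold for the difference of the changes. The lists were made with earlier results of these data known, and some share members, such as Ccr7 and Il7r in the naive and the receptor lists. The counts are therefore not separate from one another, and no list was tested as a set.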

How the data were processed

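RNA sequencing libraries were made with a TruSeq kit, per the labels' protocols, of a version that does not mark strand, so overlapping and antisense genes cannot be told apart. The submitters' processing notes name Trim Galore, STAR, featureCounts, DESeq2 and mm10. The authors deposited log2 normalized values. The transform is not named. 5663 rows were 0 in every library and 0 rows in only some, and values ran from -2.37 to 20.1. The values hold no counts, so depth, counting intervals and floors are unknown. All columns matched 1 title each (0 unmapped).

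Here limma 3.58.1 in R 4.3.3 fitted a mean per group over 12 libraries (eBayes with trend, two-sided). Genes named were Smad4, the 14 largest rises and 14 largest falls with a higher mean of at least 5 and no overlap, and up to 4 called members of each list in each direction; 874 unnamed gene models and receptor segments and 19 rows named as dates were counted only. Members, lists and tests were chosen with earlier results of these data known. The fit was tested on simulated data. Coordinates are GENCODE's on GRCm38. Results for some named genes are not reported here.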

Additional observations from a re-analysis of the deposited data

How the results depend on the processing

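The 8453 KO calls stayed within 1.5 times under all 24 alternatives, from 7186 (adjusted p under 0.01) to 8567 (median centring), and 7934 to 8539 with 1 library left out. With the replicate number as a block they were 8517, and 8017 in the 6 KO-labelled libraries alone with the block. Deviations from the group means of same-numbered libraries had r of 0.06, 0.37 and 0.09 between KO 12 h and KO 3 h and 0.17 to 0.50 in the 9 other pairs, against -0.32 to 0.19 for different numbers. All r of same-numbered libraries were positive, and those of replicate 2 were 0.37 to 0.50, so the replicate 2 libraries share some variation. For replicates 1 and 3 this does not hold between the KO times. There r was 0.19 for 12 h replicate 3 with 3 h replicate 1 and 0.11 for 12 h replicate 1 with 3 h replicate 3, above their same-number values. The labels do not say that the numbers pair samples. The main fit therefore left the number out, and the fit with it as a block is the alternative given above. Of main calls that were tested, 84.6% (without the 4 replicate 2 libraries) to 99.9% (mean of at least 5) were shared, and 3 genes changed sign, with quantile normalization. The count of differences of the changes, 0, became 3 without the filter (1 higher, 2 lower, low genes), 2 with a robust prior, 2 with quantile normalization, 3 with the replicate block, 2 at an adjusted p under 0.1, and 0 to 28 with 1 library left out: 28 without WT 3 h replicate 2, 2 without KO 12 h replicate 2 and 1 without WT 12 h replicate 3, higher in KO wherever not stated; the cause was not tested. Without the trend it was 0, with 556 genes at an unadjusted p under 0.05. Without the 4 replicate 2 libraries it was also 0, with 537 such genes. Of 268 named calls 243 were kept under every alternative, 25 were lost under at least 1, and 0 reversed. Medians of the integrin list changed sign with array weights (0.01), quantile normalization (0.04) and without replicate 1 at 3 h (0.01) or 12 h (0.01), and those of translation factors (-0.03), tRNA synthetases (-0.06) and endoplasmic reticulum genes (-0.02) with median centring. Depth is unknown, and each call rests on 3 libraries a group.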
